A study of Rattus norvegicus with 18 samples.

Results

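Intestinal tissue of rats exposed to a single X-ray dose of 10 Gy was compared with intestinal tissue of untreated rats by bulk RNA sequencing. All animals were wild-type Sprague–Dawley rats, an outbred laboratory stock. The 6 libraries whose titles name radiated tissue were set against the 6 whose titles name control tissue, so 12 of the 18 libraries of the series entered the comparison, and all genes were considered. The other 6 libraries came from irradiated rats that later received Changbing Formula, and they served to estimate the spread and as values beside single genes. Sex, age, time after irradiation, gut segment and irradiated field are not given in the labels. The free-text descriptions of all samples speak of untreated rats, also where title and treatment field name irradiation, and grouping followed the titles. A single batch label covers all samples.

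The intestinal lining is renewed by dividing stem and progenitor cells at the base of the crypts, whose offspring move up and become absorptive and secretory cells. Because these cells divide so often, the lining is among the tissues most sensitive to ionising radiation. X-rays break DNA, the break response switches on p53 target genes that arrest or kill crypt cells, and inflammation, regrowth from surviving crypts and, later, fibrosis can follow. The count table names its genes by Ensembl identifiers without symbols, and 0 of its 30562 genes could be matched to a symbol. Levels of p53 targets, crypt, immune or fibrosis genes are therefore not reported here, and the labelled tissue could not be checked against marker genes. In bulk tissue, fewer cells of a type and less RNA per cell cannot be told apart.

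Libraries held between 35240791 and 48398184 counts, with a mean of 43287921 ± 5412430 in control and 40145851 ± 4659327 in irradiated libraries (SD, n = 6 each; two-sided exact permutation p = 0.294, adjusted p = 0.588 over the 2 measures tested). The mitochondrial chromosome accounted for 19.5% ± 5.34 of counts in control and 19.9% ± 12.0 in irradiated libraries (SD, n = 6 each; two-sided exact permutation p = 0.942, adjusted p = 0.942). The irradiated group held both the lowest share, 5.77% in irradiated 4, and the highest, 39.7% in irradiated 5, and control 2 was the lowest control at 9.3%. Levels are given in CPM, counts scaled to the library total, with TMM factors unless stated otherwise. Genes of the Y chromosome were read in all 12 libraries, with 108 to 292 CPM in sum, here without TMM factors.

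Control 2 and irradiated 4 stood apart from the rest of their groups. On the first principal component of log2 CPM they scored 176 and 216, irradiated 1 scored 28.3, and the other 9 libraries lay between -44.3 and 26.1. The score of irradiated 1 was thus only just outside the range of these 9. A library was counted as alone for a gene where its gap to the nearest library of its group, as a share of the group's range, exceeded Dixon's 95% limit for 6 values. Control 2 was alone for 2433 of the 16593 genes tested (14.7%), above the other controls for 1415 and below them for 1018. Irradiated 4 was alone for 1692 genes (10.2%), above for 711 and below for 981. Irradiated 1 was alone for 215 genes, control 5 for 232, and the remaining libraries for 14 to 126.

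**Figure D1:**
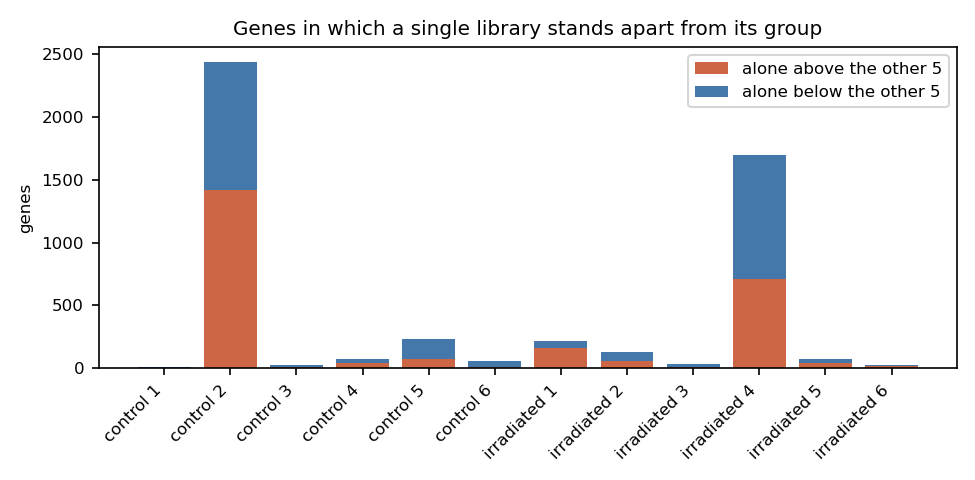
Number of the 16593 tested genes (vertical axis) for which each library stood alone in its group, with genes above the other 5 in orange and below them in blue. Control 2 (2433 genes) and irradiated 4 (1692 genes) stand far above the other libraries, of which control 5 had the most, 232.

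These libraries made up most of the lone values: control 2 supplied 85.8% of those among controls and irradiated 4 supplied 78% of those among irradiated libraries. Most departures were not shared, but those that were went the same way although the libraries carry opposite labels. Both were alone and high for 257 genes, both were alone and low for 260, and for 0 genes was one high where the other was low. The shared 517 are 21.2% of the genes for which control 2 was alone and 30.6% of those for irradiated 4. Low mitochondrial shares moved with these 2 libraries, and the part of the mitochondrial share in the departures was not tested.

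The spread within groups was wide and shrank without these libraries. Control 2 and irradiated 4 lay far from their groups, so a smaller spread without them follows from the choice. The median standard deviation of log2 CPM per gene was 0.54 among controls and 0.66 among irradiated rats, and the irradiated value was the larger for 66.9% of genes. Without control 2, irradiated 1 and irradiated 4 the medians were 0.37 and 0.44, and the irradiated value was larger for 60.4% of genes. The biological coefficient of variation, edgeR's typical relative spread between libraries of a group, was 60.8% with all libraries and 46.7% without these 3.

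No gene differed between irradiated and control intestine by edgeR's quasi-likelihood test at an adjusted p below 0.05 (0% called in either direction). At an unadjusted p below 0.05 the test counted 108 genes higher in irradiated tissue (0.651% of those tested) and 213 lower (1.28%), and DESeq2 counted 215 and 220. Together the edgeR counts came to 321 genes (1.93%), where a uniform p would give 830. Point estimates with TMM scaling were 8507 genes fitted higher and 8086 lower, with a median log2 fold change of 0.01. With RLE factors they were 9625 and 6968 (median 0.06), and with the mitochondrial genes left out 9647 and 6929 (median 0.06).

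The direction of the low-p genes depended on the libraries and on the scaling. The share fitted higher among genes with an unadjusted p below 0.05 was 33.6% with TMM scaling, 52.7% with the RLE factors of DESeq2, 42.8% with upper-quartile scaling, 26.7% with library totals and 57.0% with the mitochondrial genes left out. Without control 2, irradiated 1 and irradiated 4 it was 58.4%.

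Leaving out the 3 libraries raised the number of low-p genes and brought 0 genes past the threshold. That fit held 5 controls and 4 irradiated libraries. At an unadjusted p below 0.05, 517 genes were higher (3.12%) and 369 lower (2.22%), together 886 (5.34%). A uniform p over the same genes would give 830. The lowest adjusted p was 0.109, against 0.998 with all libraries (edgeR). The lists with and without the 3 libraries shared 232 genes, all in the same direction. These are 72.3% of the 321 and 26.2% of the 886. Both fits use the remaining libraries, so this agreement is no independent check. Control 2 weighed most among single libraries: without it alone the counts were 1387 higher and 730 lower, 2117 in all, with a lowest adjusted p of 0.385 (edgeR). Without irradiated 4 alone the total was 500. Among the other controls the total was 211 without control 1, 157 without control 3 and 176 without control 6, and it stayed near the full count without control 4 (347) or control 5 (335). Without irradiated 1 alone 460 genes had a low p, and 26.7% of them were higher. Without irradiated 5, the library with the highest mitochondrial share, 60.2% of 442 low-p genes were higher, and the part of that share in the direction was not tested.

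**Figure D2:**
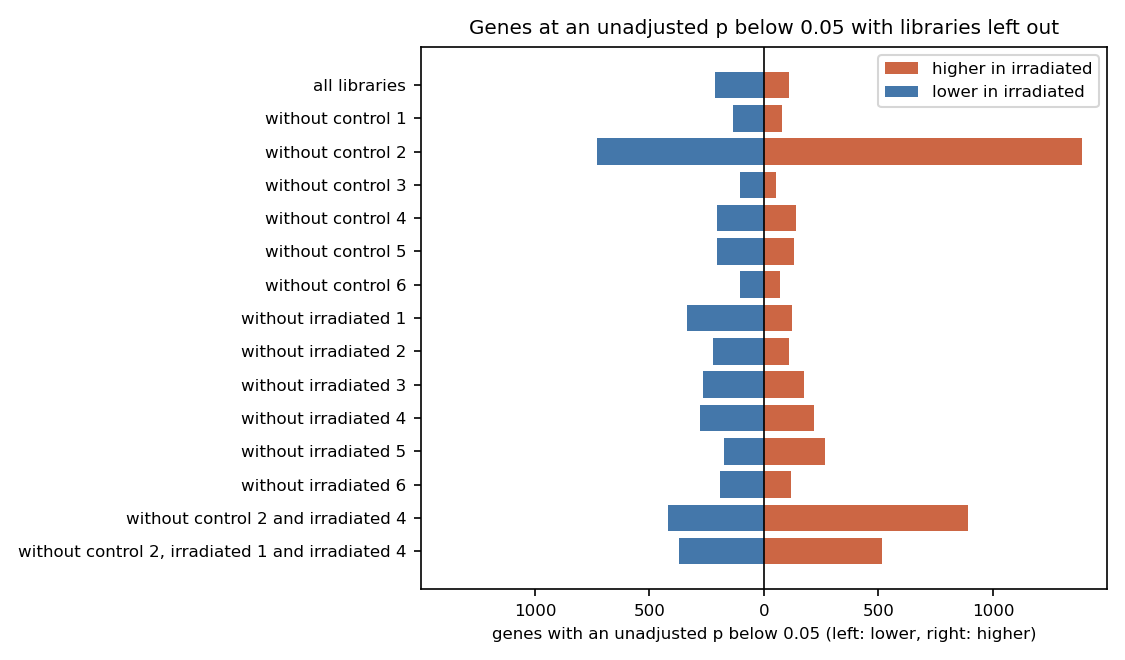
Number of genes with an unadjusted p below 0.05 in edgeR's quasi-likelihood test (horizontal axis, lower in irradiated tissue to the left in blue, higher to the right in orange) with all libraries, with each library left out, and with 2 or 3 left out. The bars are longest without control 2, at 1387 higher and 730 lower, and shortest without control 3, at 157 in all.

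Separation between the groups was as sparse as the test. With all 12 libraries 0 genes lay higher in every irradiated library than in every control, and 1 lay lower (0.00603%), with TMM scaling. There were 4 higher and 1 lower with RLE factors, 2 and 1 with upper-quartile scaling, and 0 and 4 with library totals. The gene found with TMM, singled out after its values were seen, lies on the minus strand of chromosome 10 at 45007637 to 45029650 (mRatBN7.2, 20 exon blocks, exons overlapping 1 other gene). Its controls lay between 32.41 and 43.19 CPM and its irradiated libraries between 20.55 and 28.81, a log2 fold change of -0.46 (SE 0.14, adjusted p = 0.998, edgeR). It stood at -0.51 without the 3 libraries. With 5 against 4 libraries, separation asks less of each gene: 159 genes then lay higher (0.958%) and 92 lower (0.554%) without overlap.

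For single genes, the 2 with the lowest p in each direction and a mean of at least 1 CPM are given by identifier. None passed the threshold, and the values are levels in TMM-scaled CPM, which are not divided by gene length. The gene with the lowest p of all was fitted higher in irradiated tissue, and 5 of 6 irradiated libraries lay above every control. ENSRNOG00000014448, annotated on chromosome 1 at 167331633 to 167430231 (plus strand, 23 exon blocks), had control levels of 12.38 to 25.91 CPM with a median of 15.26, and irradiated levels of 16.24 to 52.73 with a median of 44.77. Irradiated 2, 3, 5 and 6 lay together at 43.39 to 52.73, irradiated 1 at 26.1 lay just above the highest control, and irradiated 4 lay among the controls. The means were 17.8 ± 5.68 and 38.9 ± 14.4 CPM (SD, n = 6), a log2 fold change of 1.13 (SE 0.27, 95% interval 0.57 to 1.69, adjusted p = 0.998, edgeR). The log2 fold change without the 3 libraries was 1.41 (SE 0.21, adjusted p = 0.109, edgeR), with controls at 11.58 to 24.64 CPM and irradiated libraries at 42.92 to 51.8. Rats given the formula after the same dose had a median of 83.0 CPM, from 57.69 to 104.1, which was not compared here.

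The second gene fitted higher showed another arrangement of libraries. ENSRNOG00000017328 lies on chromosome 17 at 76058503 to 76119627 (plus strand, 5 exon blocks, exons overlapping 1 other gene, whose reads cannot be told apart by strand). Its control levels ran from 5.125 to 12.3 CPM with a median of 6.102, and its irradiated levels from 8.323 to 23.52 with a median of 12.91. The highest control was control 2, and 3 of 6 irradiated libraries, irradiated 1, 4 and 6, lay above it. The means were 6.95 ± 2.71 and 14.4 ± 6.60 CPM (SD, n = 6), a log2 fold change of 1.05 (SE 0.31, adjusted p = 0.998, edgeR). With the 3 libraries left out it was 1.12 (SE 0.31, adjusted p = 0.825, edgeR), and rats given the formula had a median of 7.72 CPM.

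The gene with the lowest p among those fitted lower had a wide fold and a wide spread. ENSRNOG00000021027 lies on chromosome 1 at 96175440 to 96180745 (plus strand, 3 exon blocks). Its control levels ran from 59.87 to 262.6 CPM with a median of 121.6, and its irradiated levels from 12.08 to 84.22 with a median of 30.38. The lowest control was control 2, the highest irradiated libraries were irradiated 1 and 3, and 4 of 6 irradiated libraries lay below every control. The means were 141 ± 70.1 and 40.5 ± 27.6 CPM (SD, n = 6), a log2 fold change of -1.80 (SE 0.44, 95% interval -2.72 to -0.88, adjusted p = 0.998, edgeR), and without the 3 libraries -2.24 (SE 0.46, adjusted p = 0.403, edgeR). Rats given the formula had a median of 11.9 CPM, from 5.38 to 14.92.

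The other gene fitted lower had a small fold and a small spread. ENSRNOG00000018044 lies on chromosome 17 at 73329082 to 73346409 (minus strand, 9 exon blocks). Its control levels ran from 68.0 to 95.82 CPM with a median of 76.51, and its irradiated levels from 46.03 to 74.71 with a median of 51.82. Only irradiated 1 reached into the control range, and the other 5 irradiated libraries lay below every control. The means were 79.4 ± 10.6 and 55.3 ± 10.2 CPM (SD, n = 6), a log2 fold change of -0.52 (SE 0.13, adjusted p = 0.998, edgeR), and without the 3 libraries -0.62 (SE 0.12, adjusted p = 0.245, edgeR). Its median in rats given the formula was 52.3 CPM.

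**Figure D3:**
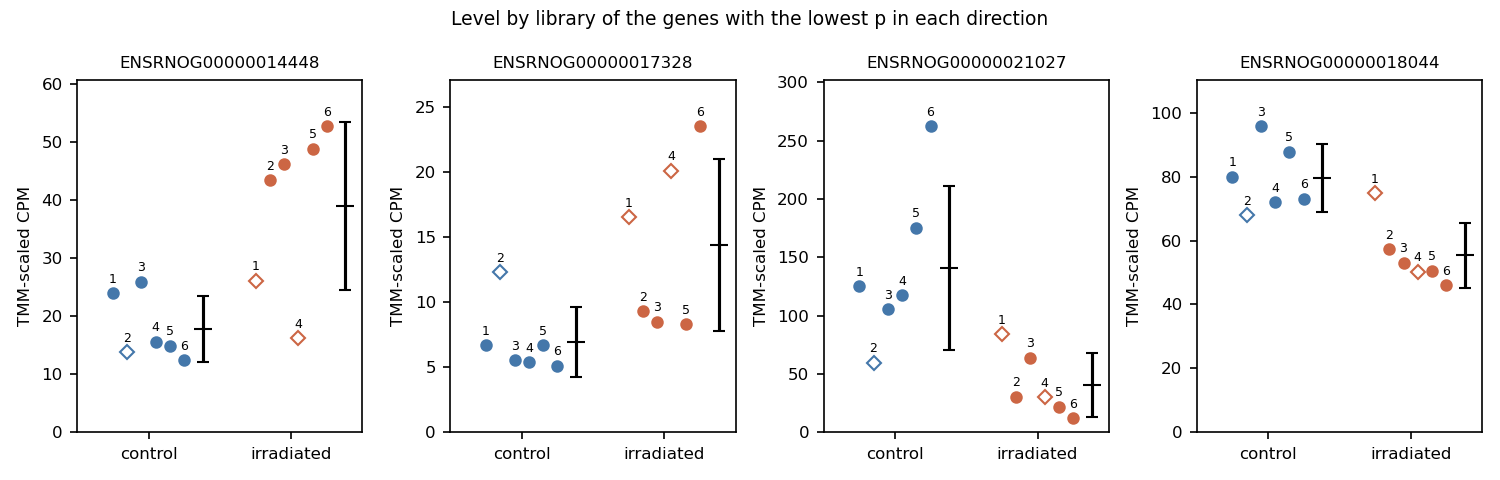
TMM-scaled CPM (vertical axes, from 0) of the 4 genes named by identifier in each control (blue) and irradiated (orange) library, numbered by replicate. Black marks are group means with SD (n = 6), and open diamonds are control 2, irradiated 1 and irradiated 4. In ENSRNOG00000014448 irradiated 4, at 16.24, sits among the controls, and in all 4 panels the groups overlap.

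The 10 genes with the lowest p in each direction, among those with a mean of at least 1 CPM, were spread over the genome. The 10 fitted higher lay on 6 chromosomes, had log2 fold changes of 1.03 to 4.13 in size and unadjusted edgeR p from 0.000511 to 0.00979, and overlapped the controls in all 10 cases. The 10 fitted lower lay on 9 chromosomes, with sizes of 0.461 to 2.55, and 9 of them overlapped. All of them kept their direction without the 3 libraries, 9 of 10 in each direction had a larger fold, and 0 passed the threshold. The genes were picked in a fit that holds the same remaining libraries, so this is no independent check.

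A gene that came second by p once the 3 libraries were left out was chosen after its values were seen. It lies on the minus strand of chromosome 11 at 36799660 to 36823507. In control 2 it was read at 75.43 CPM, in the other controls at 6.294 to 11.16, and in the irradiated libraries at 11.66 to 71.92 with a median of 29.17, irradiated 1 being the lowest and irradiated 4 the highest. Its log2 fold change was 0.85 with all libraries (SE 0.61, adjusted p = 0.998, edgeR) and 1.98 without the 3 (SE 0.34, adjusted p = 0.196, edgeR). Control 2 was the highest of all 12 libraries.

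Large fitted folds were mostly those of genes read at low levels. A fold of at least 2 was fitted for 371 genes higher (2.24%) and 356 lower (2.15%), and the groups overlapped for every one of them. An unadjusted p below 0.05 was reached by 54 of the 371 and 87 of the 356. The mean was under 3 CPM for 206 of the higher genes (55.5%) and 260 of the lower (73%). Of all 16593 genes tested, 2255 had a mean below 1 CPM and 1866 a mean from 1 to below 3. With the 3 libraries left out, 258 of the higher genes still had a 2-fold difference, 92 kept the sign with less, and 21 changed sign. Of the lower genes the matching numbers were 236, 106 and 14. At the same time 451 genes newly reached a 2-fold higher estimate and 151 a 2-fold lower one, giving 709 (4.27%) and 387 (2.33%).

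**Figure D4:**
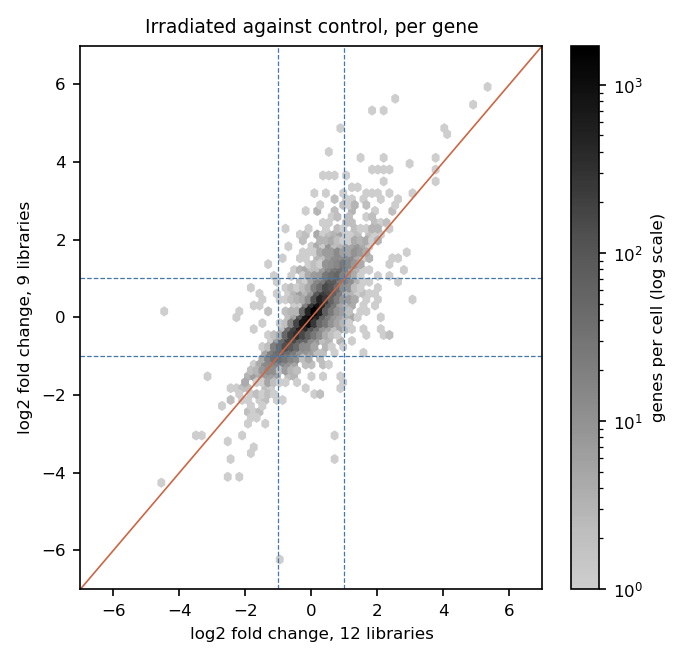
Log2 fold change of irradiated against control tissue for the 16593 tested genes with all 12 libraries (horizontal axis) and without control 2, irradiated 1 and irradiated 4 (vertical axis), with darker cells holding more genes. The orange line marks equal values and dashed lines mark 2-fold. More genes pass 2-fold higher on the vertical axis (709) than on the horizontal (371).

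Intervals were narrower for genes read at higher levels, up to 100 CPM. The 95% interval stayed inside 2-fold in both directions for 6.12% of 2255 genes below 1 CPM, for 19.8% from 1 to 3 CPM, for 41.4% from 3 to 10, for 65.4% from 10 to 30, for 75.1% from 30 to 100, and for 69.1% of 1706 genes at 100 CPM or more. For most genes above 10 CPM, differences beyond 2-fold thus lay outside their interval. For most genes below 3 CPM the interval reached beyond 2-fold, so such differences were not excluded. In the fit without the 3 libraries the share was 3.5% below 1 CPM and 16.5% from 1 to 3, lower than with all libraries, and 42.8%, 69.1%, 81.3% and 82% in the higher classes.

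Genes with many exons were fitted slightly higher than genes with few. The median log2 fold change was -0.04 for 929 genes with 1 merged exon block, -0.04 for 2063 with 2 to 3, -0.016 for 6606 with 4 to 10, 0.04 for 6137 with 11 to 30 and 0.072 for 858 with at least 31. In the fit without the 3 libraries the last 2 medians were 0.077 and 0.163. These medians are small beside the spread of single genes, and genes with more blocks were also read at higher levels, with a median of 1.8 CPM for 1 block and 27.5 for at least 31. The part of level in the gradient was not tested.

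By chromosome, medians of the fitted log2 fold change ran only from -0.04 on chromosome 12 to 0.08 on chromosome 11 over the 20 autosomes and X. The share of genes with an unadjusted p below 0.05 ran from 1.27% on chromosome 12 to 3.15% on chromosome 4, beside 1.93% of all genes. On the Y chromosome 8 genes were tested and all 8 were fitted higher in irradiated tissue (median 0.29), 7 of 8 with scaling by library totals (median 0.24). Levels were also summed over all Y genes, scaled by library totals without TMM factors. The sums were 162 ± 44.3 CPM in control and 196 ± 51.6 in irradiated libraries (SD, n = 6). They overlapped widely, with the highest value in irradiated 4 (292). Of the tested Y genes, 0 had an unadjusted p below 0.05 in edgeR.

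The mitochondrial chromosome codes for subunits of the respiratory chain and for the RNAs of the mitochondrial ribosome. The deposited table holds 37 of its genes, and 17 were tested, which were 15 of the 15 longer than 100 bases and 2 of the 22 shorter ones. In irradiated tissue 14 were fitted higher and 3 lower, with log2 fold changes from -0.81 to 0.60 and a median of 0.13, against 10 and 7 with scaling by library totals (median 0.05). With the 3 libraries left out 16 were higher and 1 lower, with a median of 0.30. An unadjusted p below 0.05 was reached by 0 of the 17 in edgeR. The lowest value, -0.81 (SE 0.87), belongs to a gene of 69 bases. Its mean was only 0.306 CPM in control and 0.178 in irradiated libraries, and the next lowest log2 fold change was -0.18.

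Neighbouring genes with shared departures were sought in windows of 1 Mb holding at least 5 tested genes. Over 1207 such windows with 14495 genes, the window medians of the log2 fold change had a median of 0.02 and an SD of 0.175. The window median was at least 0.5 higher in 22 windows and at least 0.5 lower in 8, and 1 of these changed sign without the 3 libraries. The windows below were picked for their medians with all libraries, so their directions are descriptions, with no test.

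With all libraries, the 3 windows with the highest medians lay on chromosome 4, and control 2 and irradiated 4 topped their groups in each. In the window from 97000001 to 98000000 all 10 genes were fitted higher (median 1.42). Its summed level was 107 CPM in control 2 and 1.28 to 8.44 in the other controls, and in irradiated libraries 1 to 6 it was 3.38, 31.6, 51.0, 198, 0.843 and 1.03. Irradiated 2, 3 and 4 were high, while irradiated 5 and 6 were below every control. In the window from 99000001 to 100000000, 9 of 10 genes were fitted higher (median 0.91), with 133 CPM in control 2, 1.28 to 7.09 in the other controls, 183 in irradiated 4 and 0.351 to 47.0 in the other irradiated libraries. These medians were 2.63 and 1.73 without the 3 libraries, and of the 4 irradiated libraries then left, irradiated 2 and 3 lay above every remaining control in both windows.

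In the third window on chromosome 4 the median fold depended on the 3 libraries left out. From 163000001 to 164000000, 7 of 9 genes were fitted higher (median 0.85), with 34.9 CPM in control 2 and 61.6 in irradiated 4. The other controls lay at 5.66 to 9.68 CPM and the other irradiated libraries at 8.95 to 17.2. The median without the 3 libraries was -0.04, with 4 of 9 genes higher, although by summed level 4 of the 5 remaining controls lay below all 4 remaining irradiated libraries.

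The lowest medians were found on chromosomes 15 and 4, followed by windows on chromosomes 13 and X with equal rounded medians. On chromosome 4, from 81000001 to 82000000, all 18 genes were fitted lower in irradiated tissue (median -0.69). The summed level was 297 CPM in control 2 and 786 to 1170 in the other controls, and 196 in irradiated 4, 495 in irradiated 1 and 695 to 1000 in the other irradiated libraries. Without the 3 libraries 17 of 18 genes were still fitted lower, with a smaller median of -0.40, and the groups overlapped. On chromosome 15, from 42000001 to 43000000, 4 of 5 genes were fitted lower (median -0.76, and -0.64 without the 3 libraries), at 20.5 to 235 CPM in controls and 28.8 to 118 in irradiated libraries. On chromosome 13, from 86000001 to 87000000, 3 of 5 were lower (median -0.65, and -0.50 without the 3 libraries), at 17.5 to 38.0 and 11.1 to 35.6 CPM. In both windows the groups overlapped. A window on the X chromosome, from 107000001 to 108000000, had the same rounded median as the one on chromosome 13. In it 5 of 7 genes were fitted lower (median -0.65, and -0.87 without the 3 libraries), and the summed levels overlapped at 13.4 to 24.7 CPM in controls and 12.9 to 26.9 in irradiated libraries.

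**Figure D5:**
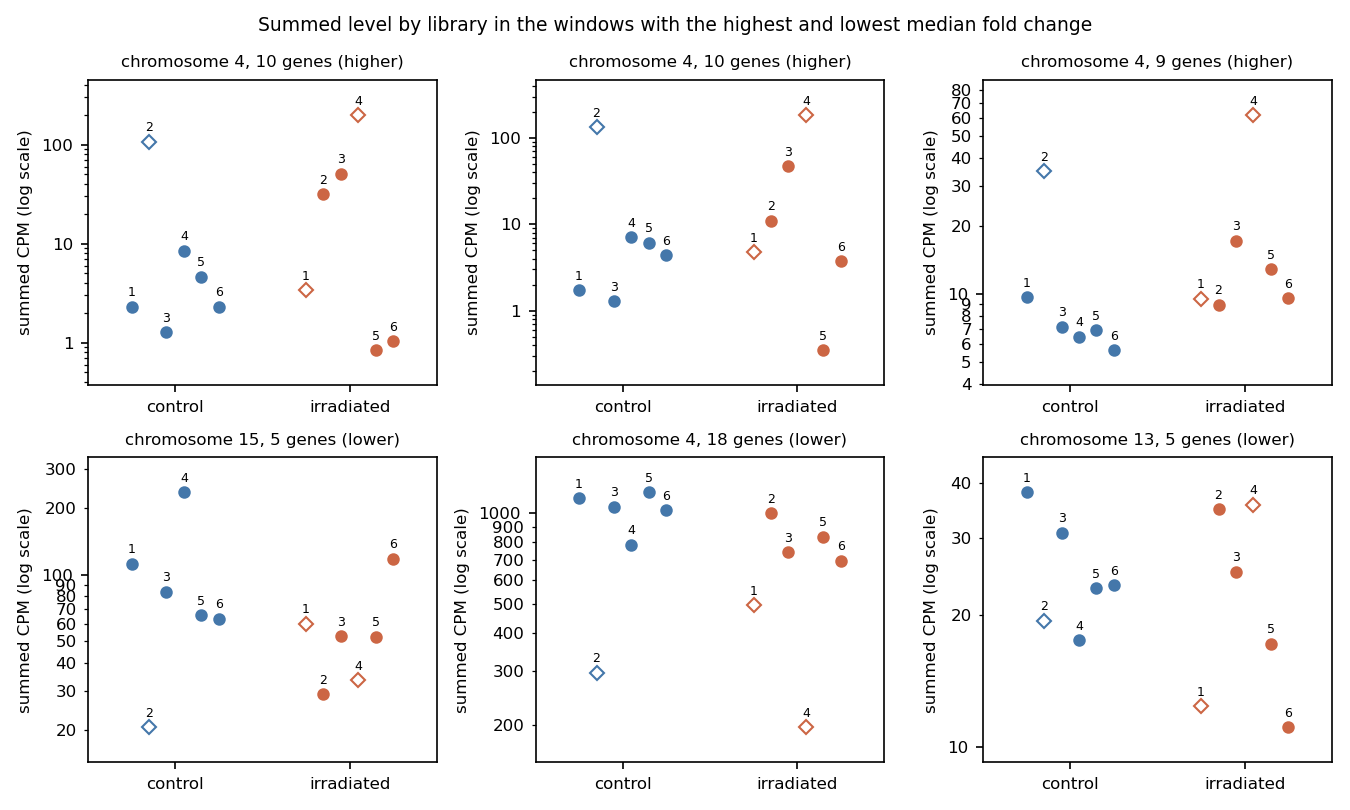
Summed CPM (vertical axes, log scale) of the tested genes in the 3 windows with the highest and 3 of the 4 with the lowest median fold change, by library, for control (blue) and irradiated (orange) tissue. Numbers are replicates and open diamonds are control 2, irradiated 1 and irradiated 4. In the upper row control 2 and irradiated 4 are the highest of their groups, at 107 and 198 CPM in the first panel.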

How the data were processed

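RNA was measured in 6 intestine libraries each of control, irradiated, and irradiated and formula-treated rats, from poly(A)-selected RNA per the labels. The authors deposited raw counts by gene. Per the file headers they come from featureCounts 2.1.1 run with mRatBN7.2 and Ensembl release 110, requiring both ends aligned, without pair counting or strand. The submitters' processing notes also name FastQC, fastp, STAR and SAMtools, whose versions are not given in the sources used here. Even numbers made up 66.9% to 74.6% of counts from 1 to below 40, so mates were largely counted separately and counting error exceeds what the counts imply. Reads of overlapping genes cannot be told apart.

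All 18 libraries entered 1 model in edgeR 4.0.16 (R 4.3.3). filterByExpr kept 16593 of 30562 genes, TMM factors were used, and each p was adjusted by Benjamini-Hochberg over the genes tested, with a threshold of 0.05. SE, and the 95% intervals from it, are approximate: the absolute log2 fold change over the square root of F. Fits without control 2, irradiated 1 and irradiated 4 kept the same 16593 genes and the formula libraries. Principal components used a prior count of 2. Alternatives used limma 3.58.1, DESeq2 1.42.0, other scalings and filters, and libraries left out. The procedure was tested on simulated counts drawn independently for each library. These held no library made to stand apart, so that test does not cover this feature of the data. No pair of libraries matched within sampling noise (lowest median chi-square 6.99 over 66 pairs). No label states that each library is its own animal, and p-values measure only the spread between these samples.

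Members and lists were chosen with earlier results of these data known. The rule for named genes took the 10 with the lowest p in each direction at a mean of at least 1 CPM, plus genes by symbol. As 0 genes matched a symbol, the 42 gene lists, marker lists and named symbols were not analysed here, and 2 identifiers per direction are given. The number of unused sample columns was 0.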

Additional observations from a re-analysis of the deposited data

Results flagged for a closer look

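Values were checked for a lone highest or lowest library in each group of 6. Chance gives a lone library in about 1 of 20 such groups. The values below are not independent, and several were picked for extreme values or already measure how far control 2 and irradiated 4 stand apart, so their number is not compared with chance. Control 2 was alone in the level of ENSRNOG00000017328, at 12.3 CPM, and in the gene of chromosome 11 described above, at 75.4 CPM. In the windows of chromosome 4, control 2 and irradiated 4 were alone in their groups with 107 and 198 CPM from 97000001, with 133 and 183 CPM from 99000001, and with 34.9 and 61.6 CPM from 163000001. In the window of chromosome 15 irradiated 6 was alone, at 118 CPM. On the first principal component control 2 was alone at 176 and irradiated 4 at 216. The same libraries were alone in the number of genes for which they departed from their groups, 2433 and 1692.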

How the results depend on the processing

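Over 26 alternatives the edgeR, DESeq2 and limma fits called 0 genes, with lowest adjusted p from 0.109 to 1, and the 4 named genes kept their direction and stayed short of the threshold. Against 321 genes at an unadjusted p below 0.05 (108 higher, 213 lower) the count was 721 (308, 413) without a filter, 1818 (511, 1307) with limma-voom quality weights, 180 (74 of them lower) with only 12 libraries fitted, 886 (517, 369) without control 2, irradiated 1 and irradiated 4, and 1312 (893, 419) without control 2 and irradiated 4. The higher genes numbered 164 with RLE factors, 215 with DESeq2, 246 with the first principal component as a covariate and 179 without mitochondrial genes, where 135 were lower. Leaving out 1 library gave totals of 157 to 2117, with 51 to 1387 higher and 106 to 730 lower. Genes without overlap numbered 1 with TMM, 5 with RLE, 3 with upper quartile, 4 with library totals, 3 without a filter, 251 without the 3 libraries, 156 without control 2 and irradiated 4, and 4 to 110 with 1 library left out. The cause was not tested, beyond the fact that fewer libraries separate more easily. With the replicate number as a block the count was 182 (67 higher, 115 lower); the numbers did not pair the libraries, since 0 of 6 pairs correlated above 0.1 (-0.39 to -0.01) and 0 of 6 libraries in either group correlated best with their own number. Intervals reached beyond 2-fold most often for genes below 3 CPM.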
